A study of Mus musculus with 16 samples.

Results

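Liver RNA from GR knockout mice given dexamethasone was compared, across all genes, with liver RNA from wild-type mice given the same drug. The comparison was defined by the sample titles and source names: the 4 arrays titled PBS_DEX (GR knockout, dexamethasone treated) were set against the 4 titled WT_Dex (WT, dexamethasone treated). These are 8 of the 16 arrays of the series, and 18505 genes could be tested on them. The other 8 arrays hold untreated WT and untreated GR knockout liver, 4 of each, and were used to follow the same genes without the drug. All mice were male C57BL/6, aged 3 months. The treatment protocol speaks of a liver knockout and of vehicle, whereas the source names of the controls say no treatment, and the titles of all knockout samples carry PBS. The sources used here do not say how or in which part the gene was deleted, and give no dose, route or duration for dexamethasone. Separate mice are not named for the replicates, so the p-values measure the spread between these samples, which may be technical. Because every slide carried a single group, the slide and the group compared cannot be told apart, here or in the untreated arrays.

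GR, the glucocorticoid receptor encoded by Nr3c1, rests in the cytoplasm bound to chaperones until a glucocorticoid such as cortisol, corticosterone or the synthetic drug dexamethasone binds it. It then enters the nucleus, binds DNA at glucocorticoid response elements as a dimer and raises transcription of nearby genes, while it lowers others, many of them inflammatory. In hepatocytes the receptor is known for inducing enzymes of gluconeogenesis and amino acid breakdown, for supporting the acute phase response together with interleukin-6, and for feeding into the clock through Per1. Both groups compared here received dexamethasone, and they differ in the gene of its receptor.

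Levels below are log2 processed signals relative to the 75th percentile of the array, so that 0 is the signal of a fairly bright spot and each step of 1 is a 2-fold step in signal. That percentile lay between 526.0 and 691.1 intensity units on the 8 treated arrays, and between 61.3% and 67.9% of their spots were well above background. It was lower on untreated knockout replicate 1, at 309.0, and untreated WT replicate 4, at 400.0. The dimmest signals above background on these were -4.13 and -4.37, against -5.69 to -4.90 on the treated arrays. Correlations over genes were 0.9812 to 0.9891 within treated knockout, 0.9855 to 0.9902 within treated WT and 0.9647 to 0.9738 between them. The first principal component, with 53.6% of the variance of the 8 arrays, separated the genotypes, at 34.35 to 54.06 for knockout and -52.01 to -44.4 for WT. Knockout replicate 4 stood apart from the other knockout arrays, at -45.18 on the next component, which held 11.9%. It was the knockout array closest to WT for 44.8% of the genes called higher and 38.7% of those called lower. Without it 3676 genes were called, 2365 higher and 1311 lower. The arrays measured whole liver, in which fewer cells of a type and less RNA per cell cannot be told apart.

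The targeted gene was lower in treated knockout. Nr3c1 stood at 1.92, 2.18, 2.17 and 2.26 on the 4 WT arrays and at -0.11, 0.44, 0.00044 and 0.34 on the 4 knockout arrays. The groups did not overlap, and the level fell 3.90-fold, by 1.96 on the log2 scale (SE 0.14, adjusted p = 6.3e-06). Of 4 probes for the gene, 3 fell by 1.93 to 1.96, and the other differed by -0.97 (SE 0.51, adjusted p = 0.20) and was not called. Where these probes lie relative to the deleted part is not known here, so they bear on the labels only in part. The probe that stands for the gene was still well above background on all 4 knockout arrays.

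Loss of the receptor under dexamethasone went with 4153 called genes, 22.4% of those tested (limma, adjusted p under 0.05, two-sided), of which 2635 (14.2%) were higher and 1518 (8.20%) lower in knockout. At an unadjusted p under 0.05 there were 6495. With each array centred on its median in place of its 75th percentile, 2041 were higher and 2061 lower, so the majority of higher calls depends on the centring. Normexp background correction gave 1395 higher and 991 lower, array weights gave 4186 and 2503, and a test for differences beyond 1.5-fold gave 293 and 256. The median difference over all genes tested was 0.09 on the log2 scale. Among called genes 1208 were higher and 624 lower by over 2-fold. Past 8-fold the order turned, with 33 higher and 50 lower, and past 16-fold there were 7 and 18. Higher calls were more frequent among dim genes: in the lowest tertile of levels 17.9% of genes were called higher and 5.42% lower, and in the highest tertile 10.5% were called in each direction. The 4 knockout values and the 4 WT values did not overlap for 3701 of the 4153, beside 31.7% of all genes tested.

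**Figure D1:**
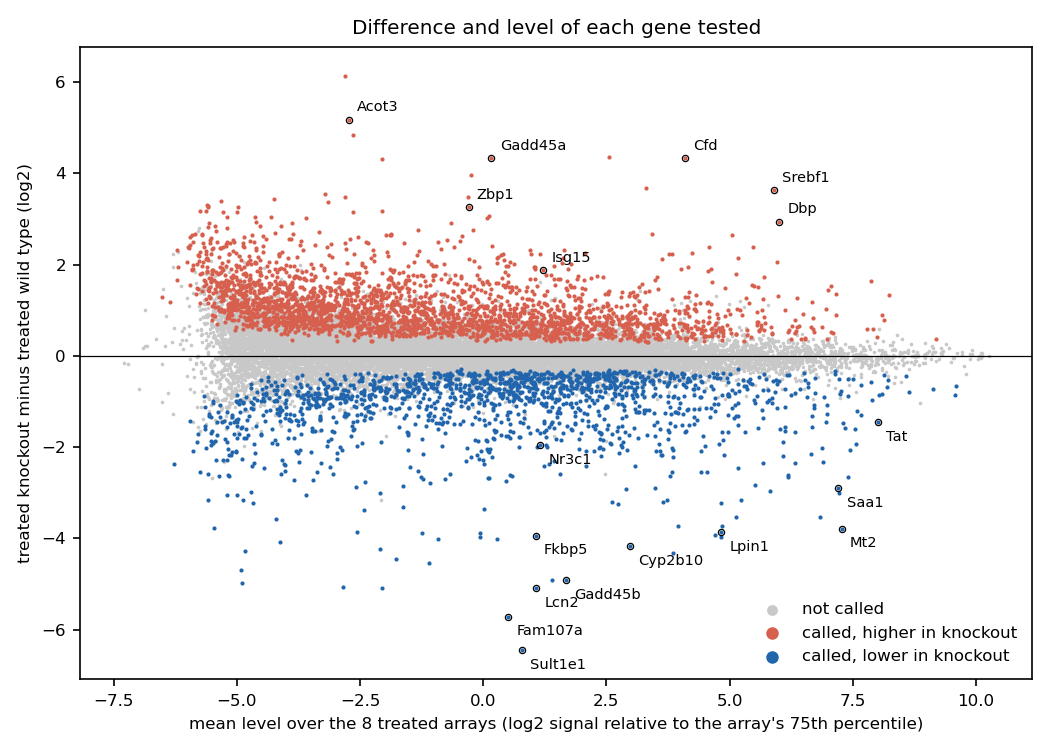
Each point is 1 of the 18505 genes tested, with its mean level over the 8 treated arrays across and the treated knockout minus treated wild type difference (log2) up. Coloured points are the 2635 genes called higher and the 1518 called lower, circled points are genes named in the text, and falls of over 4-fold occur among bright genes such as Lpin1 as well as among dim ones.

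Several of the genes that fell carry a glucocorticoid response element in the 300 bases around their start, and these windows are shown because they hold the sequence the receptor binds. They are RefSeq sequences (GRCm38.p6), written 5′ to 3′ on the strand of the gene, with each match in capitals. The perfect element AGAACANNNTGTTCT, searched on both strands, was found in 3 of 32851 promoters and in 2 of the 15168 promoters of genes tested, those of Acnat2 and Sgk1. The other windows hold a match to the shorter form GNACANNNTGTNC, of which the perfect element is one case.
Acnat2 promoter, chr4:49408214-49408278, minus strand: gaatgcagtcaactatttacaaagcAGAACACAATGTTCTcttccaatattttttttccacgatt
Sgk1 promoter, chr10:21993676-21993740, plus strand: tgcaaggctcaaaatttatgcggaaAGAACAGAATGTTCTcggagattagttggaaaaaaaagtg
Fam107a promoter, chr14:8309860-8309922, minus strand: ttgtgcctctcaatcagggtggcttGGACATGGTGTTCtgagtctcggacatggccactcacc
Mt1 promoter, chr8:94178970-94179032, plus strand: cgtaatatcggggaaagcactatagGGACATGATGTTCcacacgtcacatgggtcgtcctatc
Serpina3n promoter, chr12:104406605-104406667, plus strand: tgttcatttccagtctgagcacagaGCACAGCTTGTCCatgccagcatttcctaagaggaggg
Map3k6 promoter, chr4:133240612-133240674, plus strand: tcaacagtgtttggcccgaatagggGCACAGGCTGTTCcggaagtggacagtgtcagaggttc
Sgk1, a serum- and glucocorticoid-induced kinase, differed by -1.05 (SE 0.44, adjusted p = 0.1) and was not called. Acnat2, an acyl-coenzyme A amino acid conjugating enzyme, fell (log2 -2.27, SE 0.66, adjusted p = 0.023), but lost its call without WT replicate 4, knockout replicate 2 or knockout replicate 3. Fam107a, Mt1, Serpina3n and the stress kinase Map3k6 (log2 -1.96, SE 0.37, adjusted p = 0.0023) fell too. Acnat2, Serpina3n and Map3k6 were named after their values were seen. The shorter form was in 7 of 150 promoters of genes that fell by over 4-fold (4.67%), in 2 of 130 of genes that rose by over 4-fold (1.54%), in 1.2% of the promoters of all genes called lower, in 0.261% of those of all genes called higher, in 0.429% of those of all genes tested and in 0.475% of all promoters. These shares count promoters and not genes. Among the 7, Fam107a entered with 2 promoters that hold the same element, and Serpina3n shares its element with a related serpin gene that also fell. A match is a run of letters in this window and not a measured binding site.

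Of the 20 largest falls, the 5 described first were in genes with clear signal in treated WT liver. Sult1e1, the sulfotransferase that inactivates oestrogens, stood at 5.11, 3.40, 3.68 and 3.83 in WT and -2.11, -2.15, -3.95 and -1.59 in knockout. No knockout array came within 4 log2 units of any WT array, and the gene fell 87.7-fold (log2 -6.45, SE 0.75, adjusted p = 8.5e-05). Its probe lies at chr5:87512926-87512985 (mm7). Fam107a, an actin-binding stress protein and a long-known dexamethasone target, stood at 3.98, 2.89, 3.48 and 3.11 in WT and -3.76, -1.85, -3.33 and -0.45 in knockout (probe at chr14:6106017-6106076, mm7). Its groups were apart by more than 3 log2 units, although the 4 knockout arrays themselves differed widely (log2 -5.71, SE 1.21, adjusted p = 0.0042). Lcn2, the siderophore-binding acute phase protein lipocalin 2, fell from 3.81, 3.30, 3.15 and 4.23 to -1.08, -2.01, -2.31 and -0.45 (log2 -5.08, SE 0.93, adjusted p = 0.0017). Cdkn1a, the cell cycle inhibitor p21, was at 4.24, 3.03, 3.95 and 4.15 in WT and at -1.02, -1.94, -1.96 and 0.64 in knockout, a 30.1-fold fall (probe at chr17:27293819-27293878, mm7). Gadd45b, a stress-induced growth arrest gene, stood at 4.77, 2.77, 4.08 and 4.88 against -2.24, 0.49, -0.77 and -0.61 and also fell (log2 -4.91, SE 0.57, adjusted p = 7.7e-05). In these 5 genes every knockout array lay below every WT array, which the rule for choosing the largest falls required.

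The other large falls were of mixed function. Wfdc12, a secreted antibacterial protein of the whey acidic protein family, fell (log2 -4.55, SE 0.48, adjusted p = 5.3e-05). Omd, the matrix proteoglycan osteomodulin, was at 1.73, 0.69, 1.35 and 0.56 in WT and -3.29, -2.41, -3.62 and -2.41 in knockout (log2 -4.02, SE 0.37). Scara5, a ferritin receptor, was at 2.22, 1.97, 2.11 and 1.39 against -1.04, -2.34, -2.67 and -2.18 (log2 -3.98, SE 0.68). Mfsd2a, the transporter of lysophospholipids that carry docosahexaenoic acid, fell from 6.09, 4.99, 6.28 and 6.69 to 2.14, 1.60, -0.54 and 3.55 (log2 -4.32, SE 1.05), and its 4 knockout arrays spanned over 4 log2 units. Lrtm1 (log2 -4.01, SE 0.78) and Eif4ebp3 (log2 -3.96, SE 0.47), a repressor of cap-dependent translation, fell as well. Falls of the dim genes depended on the background correction: with normexp in place of the scanner's correction 1810053B23Rik became -2.68, Tg -2.35, Serpina5 -2.65 and Serpine2 -2.45, against -5.08, -5.06, -4.46 and -4.24. Rsph4a and 5330439B14Rik were below background on all 4 knockout arrays, so their falls are at least 6.64-fold and at least 6.07-fold, and neither was called with normexp.

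Among the largest rises, few genes were bright in both groups. Cfd, complement factor D or adipsin, stood at 2.36, -0.45, 2.66 and 3.15 in WT and 7.77, 7.84, 6.17 and 3.29 in knockout (probe at chr10:79672573-79672632, mm7). The lowest knockout array, replicate 4, was only just above the highest WT array, and the rise was 20.2-fold (log2 4.34, SE 0.88, adjusted p = 0.0034). Gadd45a, another gene of the Gadd45 growth arrest family, went the opposite way to Gadd45b, at -2.12, -1.49, -2.48 and -1.90 in WT and 2.46, 2.51, 2.43 and 1.93 in knockout (log2 4.33, SE 0.30, adjusted p = 5e-06). Here the replicates were tight and the groups lay over 3 log2 units apart. Clstn3, a calsyntenin, was at 1.47, 1.25, 1.44 and 1.67 against 5.64, 5.37, 5.22 and 4.35 and rose 12.9-fold (log2 3.69, SE 0.24, adjusted p = 4.5e-06). Srebf1, which encodes the lipogenic factor SREBP1, was at 4.03, 5.03, 4.11 and 3.17 in WT and 7.57, 8.22, 7.69 and 7.36 in knockout (probe at chr11:60281270-60281329, mm7). The groups lay over 2 log2 units apart, and it rose 12.4-fold (log2 3.63, SE 0.52, adjusted p = 0.00036). Rnf186, a ubiquitin ligase (log2 3.96, SE 0.56), Mmd2 (log2 3.49, SE 0.72) and the nucleic acid sensor Zbp1 (log2 3.26, SE 0.35) rose from low levels.

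Acot3, a peroxisomal acyl-CoA thioesterase, had the largest fitted rise of the 20 (log2 5.17, SE 1.15, adjusted p = 0.0056), but its WT arrays ran from -7.27 to -1.72, and its difference was 2.51 with normexp. Normexp also reduced Ppp1r42 to 2.85, Slc22a26 to 1.87, Abcd2 to 1.74 and Osbpl3 to 2.06, against 4.84, 3.55, 3.38 and 3.17. Cdh24, L3mbtl1, Trpv3, Chrna4 and Tifab were not well above background on any of the 4 WT arrays, and their rises are at least 2.92-, 2.35-, 2.36-, 3.56- and 2.32-fold. The calls of Cdh24 and L3mbtl1 were lost with normexp. Over all called genes, 248 that rose were below background on every WT array, and 57 that fell were below it on every knockout array.

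**Figure D2:**
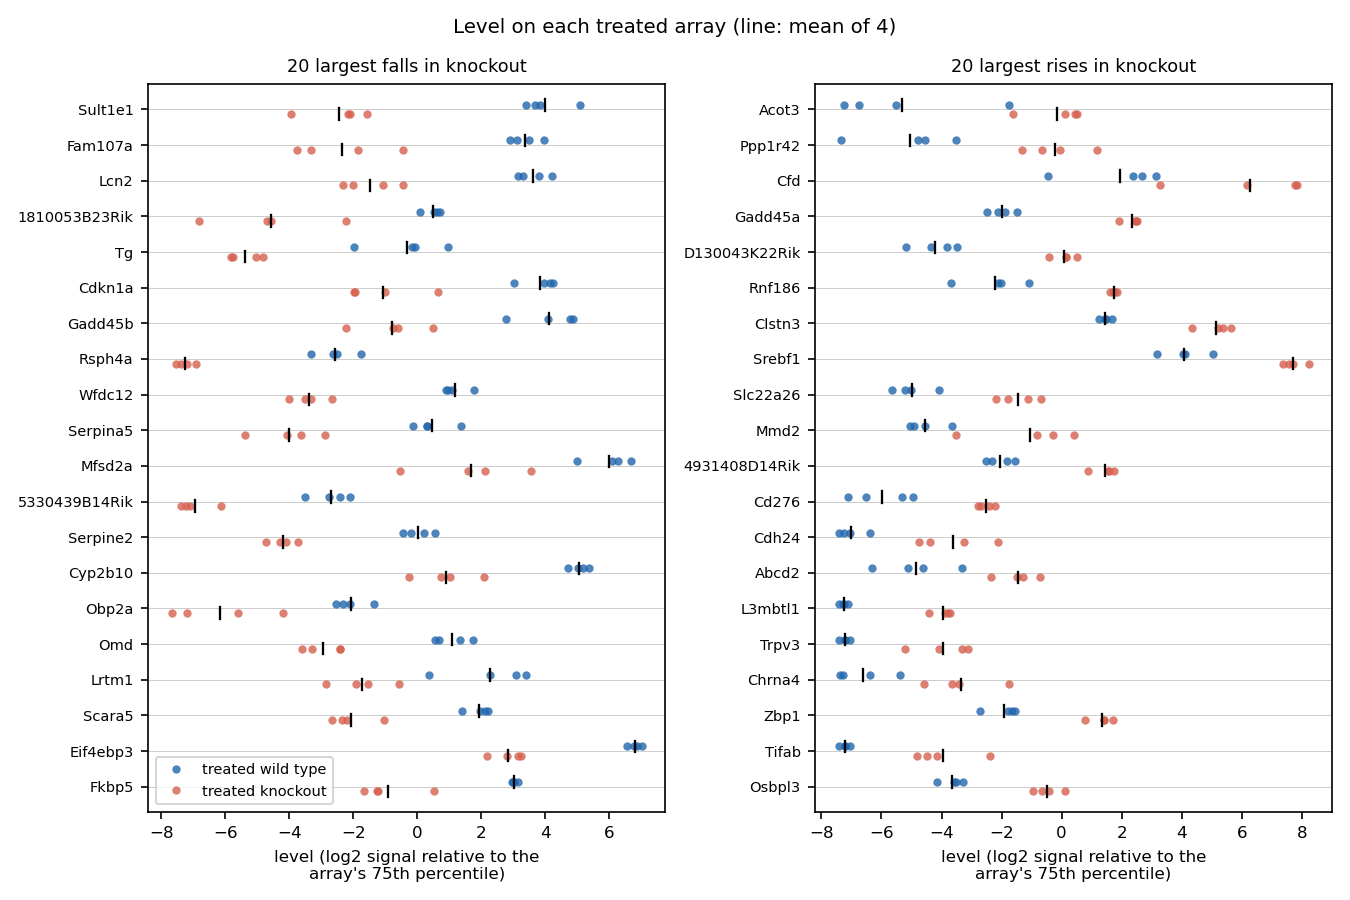
Levels (log2 signal relative to the array's 75th percentile, horizontal axis) of the 20 largest falls and the 20 largest rises, 1 point for each of the 4 treated wild-type and 4 treated knockout arrays, with a line at each mean of 4. No gene shown has overlapping groups, which the rule for choosing them required, and Gadd45a and Clstn3 combine a large rise with tight replicates.

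Classic glucocorticoid-induced genes were lower in treated knockout as a group. Of 20 tested, 14 fell and 0 rose, beside 8.20% of all genes called lower, and their median difference was -2.04 beside 0.09 for all genes. The same shares, 14.2% higher, 8.20% lower and 22.4% in all, and the same median stand beside each list below. The called share lay close to 22.4% for genes of bile acid metabolism (28.0%), drug metabolism by P450s (26.7%), glycogen and glucose use (26.3%), complement (25%), chemokines and cytokines (25%) and lipoproteins (21.1%), and under it for the unfolded protein response (16.7%) and iron and haem (13.3%). The counts of these lists are therefore no result about the list, and their genes are given singly. Fkbp5, the co-chaperone that limits GR activity, stood at 2.99, 3.01, 3.16 and 2.97 in WT and -1.67, -1.23, -1.24 and 0.51 in knockout (log2 -3.94, SE 0.61, adjusted p = 0.00057). The WT arrays were within 0.3 log2 units of each other, and all 4 knockout arrays lay far below. Lpin1, the phosphatidate phosphatase and coactivator lipin 1, was at 6.93, 6.36, 6.83 and 6.94 against 2.80, 3.19, 1.94 and 3.67, a 14.6-fold fall (log2 -3.86, SE 0.39, adjusted p = 3.8e-05). Tsc22d3, the anti-inflammatory leucine zipper GILZ, was named after its value was seen: it fell from 5.04, 4.83, 4.84 and 4.64 to 2.47, 2.65, 2.76 and 3.40 (log2 -2.02, SE 0.29, adjusted p = 0.00037). Per1, a repressor of the clock and direct GR target, fell from 2.14, 1.93, 2.39 and 2.20 to -0.15, 0.57, 0.16 and 0.93 (log2 -1.79, SE 0.23, adjusted p = 0.00015). Of the members that were not called, Glul, glutamine synthetase, differed by -0.55 (adjusted p = 0.092), Nfkbia, the NF-kB inhibitor, by -0.53 (0.12) and the repressor Bcl6 by -0.71 (0.51).

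Genes that receive, carry or clear glucocorticoids moved less uniformly: 4 of 14 rose and 1, Fkbp5, fell. Nr3c2, the mineralocorticoid receptor, which also binds corticosterone, rose (log2 1.24, SE 0.26, adjusted p = 0.0041), a difference of 0.76 with normexp. Abcb1a, a drug efflux pump that exports dexamethasone, was at -7.22, -7.27, -6.48 and -5.08 in WT, not well above background on any array, and at -2.39, -5.06, -5.06 and -4.05 in knockout. It rose at least 2.03-fold (adjusted p = 0.017), but lost its call with normexp and without WT replicate 1 or WT replicate 2. Serpina6, corticosteroid-binding globulin, rose (log2 1.55, SE 0.37, adjusted p = 0.0086), but its groups overlapped, at 4.07, 4.49, 4.46 and 5.72 in WT and 5.33, 6.34, 6.52 and 6.74 in knockout. Hsd11b1, which regenerates active glucocorticoid, differed by -0.28 (adjusted p = 0.38) and the chaperone Hsp90ab1 by 0.072 (0.76).

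Genes of gluconeogenesis were lower where they were called. Of 14 genes 7 fell and 0 rose, beside 8.20% of all genes called lower, with a median of -0.64. Pck1, phosphoenolpyruvate carboxykinase, stood at 8.04, 7.73, 8.26 and 8.52 in WT and 6.36, 5.90, 6.06 and 7.92 in knockout and fell 2.98-fold (log2 -1.58, SE 0.35, adjusted p = 0.0059), although WT and knockout values overlapped. Got1, the cytosolic aspartate aminotransferase, was at 6.11, 5.61, 5.86 and 7.01 against 3.86, 4.61, 4.04 and 5.40 with no overlap (log2 -1.67, SE 0.42, adjusted p = 0.012). Slc37a4, the transporter that brings glucose 6-phosphate to its phosphatase, fell (log2 -1.32, SE 0.20, adjusted p = 0.00053), as did the coactivator Ppargc1a (log2 -1.38, SE 0.31, adjusted p = 0.006). The phosphatase itself, G6pc, differed by -0.46 (SE 0.22, adjusted p = 0.14) and Fbp1 by 0.27 (0.38). Neither was called.

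Genes of amino acid breakdown and nitrogen disposal were more often lower than higher. Of 39 amino acid genes 16 fell and 1 rose (median -0.47). The rise was in Amdhd1, of histidine breakdown, named after its value was seen (log2 0.68, SE 0.16), and was not called with normexp. Tdo2, tryptophan dioxygenase, which opens the kynurenine pathway, was at 7.07, 6.75, 6.87 and 6.72 in WT and 3.41, 4.35, 4.72 and 5.53 in knockout (log2 -2.35, SE 0.33, adjusted p = 0.00029). Tat, tyrosine aminotransferase, the textbook glucocorticoid-induced liver enzyme, named after its value was seen, was at 8.85, 8.40, 8.95 and 8.75 against 7.30, 6.91, 7.01 and 7.91. It fell 2.74-fold, with every knockout array below every WT array (log2 -1.45, SE 0.24, adjusted p = 0.0008). Aass, which starts lysine breakdown (log2 -2.02, SE 0.22), Bhmt, which remethylates homocysteine (log2 -1.92, SE 0.37), and Sds, serine dehydratase (log2 -1.68, SE 0.36), fell by larger amounts. Of the brightest members not called, Gnmt differed by -0.59 and Agxt by 0.15. In the urea cycle 6 of 8 genes fell and 0 rose (median -0.96): the ornithine carrier Slc25a15 by 1.78 (SE 0.22), Cps1, the entry enzyme, by 1.28 (SE 0.22), Asl by 1.14 (SE 0.24) and arginase Arg1 by 1.07 (SE 0.16). Cps1 was at 7.68, 7.60, 7.57 and 7.58 in WT and 6.11, 6.50, 6.06 and 6.65 in knockout. The members that were not called were Otc, at -0.032 (adjusted p = 0.91), and Nags, at -0.0098 (0.97).

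Acute phase genes, which GR supports together with interleukin-6, were lower where they were called: 15 of 30 genes fell and 0 rose (median -0.55). Beside Lcn2, described above, the serum amyloids fell. Saa1 was at 8.81, 8.87, 8.42 and 8.51 in WT and 5.73, 5.02, 5.16 and 7.13 in knockout (log2 -2.89, SE 0.63, adjusted p = 0.0048), Saa3 at 6.71, 6.68, 6.07 and 6.28 against 2.95, 2.51, 2.71 and 4.67 (log2 -3.23, SE 0.57, adjusted p = 0.0014), and Saa4 at 8.81, 8.72, 8.78 and 8.63 against 5.45, 6.06, 5.44 and 5.96 (log2 -3.01, SE 0.47, adjusted p = 0.00058). Groups did not overlap for any of them, but Saa1 shares most of its sequence with Saa2, so its probe may read both. Serpina3n, an acute phase protease inhibitor, fell (log2 -2.54, SE 0.43, adjusted p = 0.0011). Haptoglobin, Hp, was saturated on all 4 WT arrays and is given no value. The fibrinogen chains were not called: Fgb differed by -0.22 (adjusted p = 0.35) and Fgg by -0.13 (0.52). Il1r1, the interleukin-1 receptor, fell from 4.20, 4.00, 4.31 and 4.92 to 1.46, 1.30, 0.57 and 1.13 (log2 -3.24, SE 0.46, adjusted p = 0.0003) and Cebpd, a C/EBP factor, from 5.21, 4.43, 5.03 and 5.13 to 2.15, 2.29, 2.83 and 3.69 (log2 -2.21, SE 0.29, adjusted p = 0.00017). The coagulation factors, made by the same cells, gave 0 higher and 1 lower of 21 (F9, -0.82).

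Metallothioneins, small zinc-binding proteins induced by glucocorticoids and by metals, were lower. Mt2 stood at 9.27, 8.89, 9.12 and 9.38 in WT and 5.66, 4.72, 4.42 and 6.71 in knockout (log2 -3.79, SE 1.15, adjusted p = 0.028), and Mt1 at 8.52, 8.24, 8.57 and 9.05 against 5.98, 4.45, 4.07 and 5.79 (log2 -3.53, SE 1.01, adjusted p = 0.022). Their groups did not overlap, but the calls were near the threshold. Mt1 lost its call when any of 3 treated arrays was left out, and Mt2 when any of 7 was. Slc39a14, the zinc and iron importer ZIP14, fell without that dependence (log2 -2.04, SE 0.19, adjusted p = 2.7e-05). Of the 9 genes of this list 4 fell and 0 rose, and Mtf1, the metal-sensing factor of metallothionein genes, differed by -0.30 (adjusted p = 0.36).

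Genes of fatty acid and triglyceride synthesis went the other way. Of 23 tested 11 rose and 2 fell, with a median of 0.48. Beside Srebf1, enzymes of the pathway rose: Acly, which makes cytosolic acetyl-CoA, was at 0.90, 0.26, 0.46 and 0.73 in WT and 3.49, 2.52, 2.42 and 2.07 in knockout (log2 2.04, SE 0.32, adjusted p = 0.00066). Elovl6, the elongase of palmitate, named after its value was seen, was at 3.73, 2.72, 3.57 and 2.19 against 4.61, 5.57, 5.28 and 4.40 (log2 1.91, SE 0.54, adjusted p = 0.021). Fatty acid synthase, Fasn, also named after its value was seen, was at 7.66, 7.12, 6.91 and 6.48 against 8.97, 9.24, 8.71 and 7.80 (log2 1.64, SE 0.50, adjusted p = 0.03). The groups did not overlap for any of these enzymes, but 6 of the 8 treated arrays, left out singly, ended the call of Fasn, and 4 ended that of Elovl6. Pnpla3, a lipid droplet lipase and SREBP1 target, rose (log2 2.45, SE 0.60, adjusted p = 0.0096), by 1.24 with normexp. The 2 falls were in the lipins, which make diacylglycerol: Lpin1, given above, and Lpin2, which was named after its value was seen (log2 -1.52, SE 0.17). The desaturase Scd1 differed by 0.016 (adjusted p = 0.98), Dgat2 by -0.30 (0.2) and Thrsp by -0.65 (0.48).

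Fat storage and mobilisation split, with 4 of 18 genes higher and 5 lower. Plin5, the droplet coat protein that ties droplets to mitochondria, was at 7.82, 6.996, 7.58 and 7.69 in WT and 4.68, 4.66, 4.56 and 5.52 in knockout (log2 -2.67, SE 0.35, adjusted p = 0.0002). Angptl4, a glucocorticoid- and fasting-induced inhibitor of lipoprotein lipase, was at 8.36, 8.12, 8.76 and 8.63 against 6.36, 6.63, 6.62 and 6.00 (log2 -2.06, SE 0.22, adjusted p = 5.6e-05). Plin4, fitted with 1 array missing, fell as well (log2 -2.05, SE 0.44, adjusted p = 0.0049). G0s2, which inhibits the triglyceride lipase ATGL, rose from 3.81, 3.23, 4.28 and 5.06 to 6.48, 6.31, 6.51 and 5.69 (log2 2.15, SE 0.41, adjusted p = 0.0021). Cidec, a droplet fusion protein, differed by 0.81 (adjusted p = 0.39).

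Genes of cholesterol metabolism were more often higher than lower: of 28 genes 10 rose and 2 fell (median 0.58). Mvd, mevalonate diphosphate decarboxylase, stood at -0.22, 0.16, 0.37 and -0.88 in WT and 2.58, 2.05, 2.23 and 1.51 in knockout (log2 2.24, SE 0.44, adjusted p = 0.0029). Hmgcs1, which makes the substrate of the rate-limiting reductase, stood at 5.06, 4.30, 5.32 and 5.04 against 8.93, 6.42, 6.31 and 6.31, with knockout replicate 1 far above the others (log2 2.06, SE 0.49, adjusted p = 0.0079). Against these, Insig2, a protein that holds SREBP precursors in the endoplasmic reticulum, fell from 7.27, 6.36, 6.88 and 7.19 to 4.54, 3.38, 3.77 and 4.65 (log2 -2.84, SE 0.43, adjusted p = 0.00046), with groups far apart. In bile acid metabolism 4 of 25 genes rose and 3 fell, a share close to that of all genes. Abcc4, a basolateral export pump, rose (log2 1.67, SE 0.39, adjusted p = 0.0074) and Slc51b, a subunit of another basolateral exporter, rose (log2 2.61, SE 0.53, adjusted p = 0.0035) (1.63 with normexp), whereas Cyp27a1, the first enzyme of the acidic pathway, fell (log2 -1.62, SE 0.36, adjusted p = 0.0056). The main canalicular pump Abcb11 differed by 0.033 (adjusted p = 0.86). Fatty acid oxidation gave 7 higher and 2 lower of 28, with Acadvl at -0.19 (adjusted p = 0.28) and Acaa2 at -0.054 (0.79). Fgf21, a fasting hormone from the liver, rose (log2 2.33, SE 0.74, adjusted p = 0.035), but its groups overlapped and its call was lost when any of 7 arrays was left out.

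**Figure D3:**
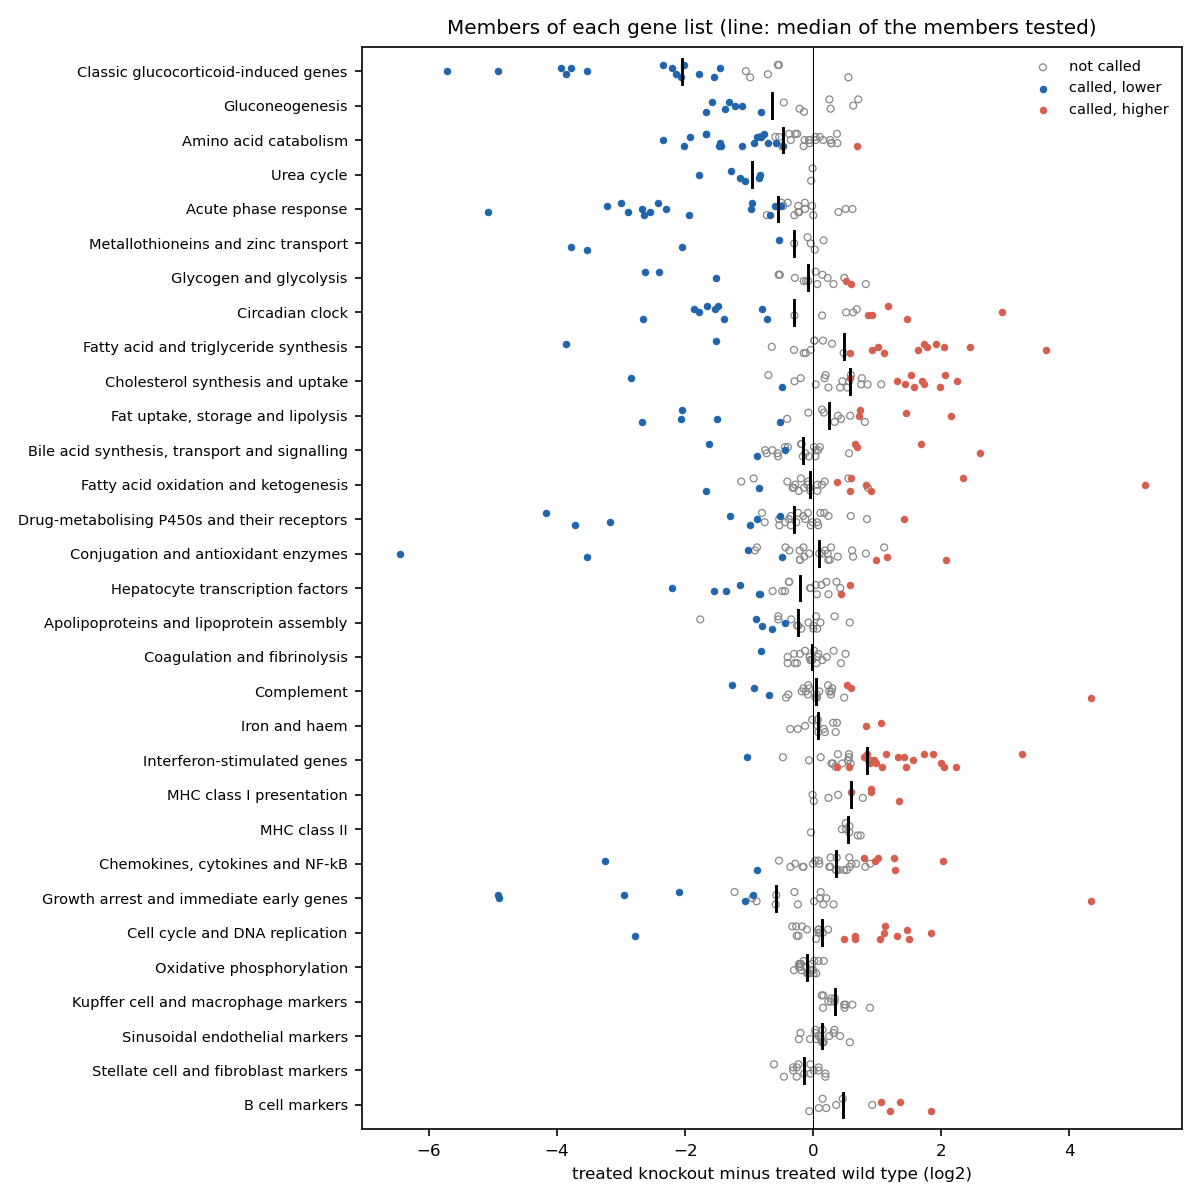
Treated knockout minus treated wild type difference (log2, horizontal axis) of each member of 31 gene lists, 1 point a gene, filled where the gene was called, with a vertical line at the median of the members tested. The medians lie furthest left for classic glucocorticoid-induced genes (-2.04) and the urea cycle (-0.96) and furthest right for interferon-stimulated genes (0.84); the median over all genes was 0.09.

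Of 19 genes of glycogen and glucose use 3 fell and 2 rose, and the falls were in regulators. Ppp1r3c, a subunit that brings protein phosphatase 1 to glycogen, stood at 5.47, 4.60, 5.17 and 5.21 in WT and 2.32, 2.46, 2.32 and 2.85 in knockout (log2 -2.63, SE 0.40, adjusted p = 0.00046). Pfkfb3, which sets fructose 2,6-bisphosphate, was at 3.15, 3.14, 3.70 and 3.19 against 1.24, 0.91, 0.44 and 0.94 (log2 -2.41, SE 0.26, adjusted p = 5.3e-05), and Pfkfb1, its liver form, fell too (log2 -1.51, SE 0.24, adjusted p = 0.00069). Khk, ketohexokinase, differed by -0.077 (adjusted p = 0.81) and was not called. In insulin and growth hormone signalling, Igfbp1, an insulin-like growth factor binding protein raised by glucocorticoids and lowered by insulin, fell from 6.83, 5.62, 6.28 and 7.92 to 2.47, 2.19, 1.99 and 4.27 (log2 -3.93, SE 0.62, adjusted p = 0.00064). Foxo1, the factor that insulin excludes from the nucleus, fell (log2 -1.22, SE 0.20, adjusted p = 0.00089). Igf1, the main growth factor the liver secretes, differed by 3.5e-05 (adjusted p = 1).

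Clock genes differed in both directions: of 19 clock genes 5 rose and 9 fell. The core loop of the clock consists of the activators Arntl (BMAL1) and Clock, their repressors of the Per and Cry families, and the nuclear receptors that regulate Arntl. Dbp, an output factor driven by the activators, stood at 4.34, 5.06, 4.75 and 3.96 in WT and 7.35, 7.63, 7.74 and 7.15 in knockout. The groups lay over 2 log2 units apart, a 7.68-fold rise (log2 2.94, SE 0.27, adjusted p = 2.7e-05). Arntl moved against it, from 0.003, -0.068, 0.06 and 0.29 to -2.31, -2.95, -3.11 and -1.99 (log2 -2.66, SE 0.53, adjusted p = 0.0029), or -1.75 with normexp. Ciart, a repressor of the activators, fell (log2 -1.86, SE 0.44, adjusted p = 0.0081), and Nfil3, which competes with Dbp for DNA, named after its value was seen, fell (log2 -1.66, SE 0.39, adjusted p = 0.0079). Nr1d1, the repressor of Arntl, also named after its value was seen, was at -1.91, -0.28, -0.53 and -1.38 against 0.83, 0.22, 0.33 and 0.36 and rose (log2 1.46, SE 0.40, adjusted p = 0.018), although its call was lost without WT replicate 1, WT replicate 4 or knockout replicate 1. Nr1d2, its relative, differed by 0.14 (adjusted p = 0.73), Tef by 0.51 (0.12) and Cry2 by -0.29 (0.55). The labels used here give no time of day at which the livers were taken.

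Of 30 genes of drug metabolism by P450s 7 fell and 1 rose (median -0.31). Cyp2b10, the standard target of the xenobiotic receptor CAR, stood at 5.36, 4.71, 5.03 and 5.19 in WT and -0.26, 0.75, 1.01 and 2.09 in knockout and fell 18.1-fold (log2 -4.18, SE 0.83, adjusted p = 0.0028). Cyp2b9 (log2 -3.17, SE 0.86) and Cyp2b13 (log2 -3.73, SE 0.88) fell as well, but the Cyp2b genes are near-identical in places, and the mean of the Cyp2b13 probes was -0.73 and not called. Cyp2c55 rose (log2 1.43, SE 0.37, adjusted p = 0.014). The sulfotransferases split: Sult1d1 fell with Sult1e1, from 6.93, 6.89, 6.69 and 7.07 to 2.61, 4.03, 3.099 and 3.75 (log2 -3.52, SE 0.40, adjusted p = 6.8e-05), and Sult1c2 rose (log2 2.07, SE 0.32, adjusted p = 0.00053). Gclc, the rate-limiting subunit for glutathione synthesis, rose (log2 1.16, SE 0.31, adjusted p = 0.015). Glutathione transferase Gstm1 differed by 0.094 (adjusted p = 0.71) and Gstm3 by -0.15 (0.39). Among genes with a sex bias in mouse liver, 3 of 14 female-biased genes rose and 4 fell, and of 18 male-biased genes 3 rose and 4 fell. Elovl3, a male-biased elongase, was at 6.08, 5.09, 5.97 and 5.90 in WT and 4.13, 3.37, 3.66 and 4.11 in knockout (log2 -1.94, SE 0.46, adjusted p = 0.0084).

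Among 22 hepatocyte transcription factors 6 fell and 2 rose. Hnf4a, the master regulator of hepatocyte identity, stood at 4.41, 4.45, 4.55 and 4.80 in WT and 3.42, 3.39, 3.45 and 3.37 in knockout (log2 -1.14, SE 0.17, adjusted p = 0.00044), with no overlap. Klf9, a direct GR target (log2 -1.55, SE 0.25), and Cebpb (log2 -1.36, SE 0.21) fell more. The bile acid receptor Nr1h4 differed by 0.038 (adjusted p = 0.94) and Rxra by 0.058 (0.79). Of 19 apolipoprotein and lipoprotein assembly genes 0 rose and 4 fell, Apoa1 by 0.80 (SE 0.18) and the HDL receptor Scarb1 by 0.89 (SE 0.18), whereas Apoa2 differed by 0.11 (adjusted p = 0.63). Complement gave 3 higher and 3 lower of 24, with Cfd far above the rest. Genes of iron and haem gave 2 higher of 15, Id1 and Hmox1, neither of which was called with normexp or with median centring. Of 24 subunits of oxidative phosphorylation 0 were called (median -0.10), and 0 had an unadjusted p under 0.05 in limma. Periportal genes gave 1 higher and 5 lower of 13 (median -0.24) and pericentral genes 1 higher and 3 lower of 12 (median -0.46). The rises, in the periportal adhesion protein Cdh1 (log2 1.69, SE 0.27) and the pericentral gene Lgr5 (log2 1.37, SE 0.36), went against the other called members of their lists.

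Interferon-stimulated genes, the antiviral programme that GR restrains in many cells, were more often higher than lower: of 35 tested 21 rose, beside 14.2% of all genes called higher, and 1 fell. Their median was 0.84, beside 0.09 for all genes. Under median centring 18 rose and 2 fell, and with single arrays left out 14 to 24 rose. The 1 fall was in Usp18, a protease that removes ISG15 from proteins and dampens interferon signalling, named after its value was seen (log2 -1.03, SE 0.24, adjusted p = 0.0079). Ifit1, which binds viral RNA, stood at -4.09, -2.80, -3.41 and -3.02 in WT and -1.75, -0.53, -1.23 and -0.94 in knockout (log2 2.22, SE 0.33, adjusted p = 0.00043). Oasl1, an oligoadenylate synthetase-like protein, was at -1.22, -0.011, -0.33 and -1.43 against 1.37, 1.37, 1.36 and 1.07 (log2 2.04, SE 0.32, adjusted p = 0.00061). Isg15, a ubiquitin-like modifier, was at -0.20, 0.32, 0.59 and 0.42 against 2.30, 1.91, 1.93 and 2.47 (log2 1.87, SE 0.22, adjusted p = 8e-05). In each of these the lowest knockout array was above the highest WT array by 1 log2 unit or more. Zbp1, given with the largest rises, and Cmpk2, a mitochondrial nucleotide kinase (log2 2.00, SE 0.21, adjusted p = 5.3e-05) (1.31 with normexp), belong to this group as well. Ifitm3 differed by 0.12 (adjusted p = 0.5), Ifi27 by -0.065 (0.83) and Irgm1 by -0.47 (0.062).

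Promoters of some of these genes are shown for the pair of GAAA repeats that interferon-activated factors bind. That of the chemokine gene Cxcl10, described below, is shown too, but Cxcl10 is not on this list. The letters searched were GAAANNGAAA on both strands, and every whole match in a window is in capitals (TTTCNNTTTC where the match is on the opposite strand), overlapping matches as 1 run. The windows are RefSeq sequences on the strand of the gene (GRCm38.p6).
Isg15 promoter, chr4:156200850-156200909, minus strand: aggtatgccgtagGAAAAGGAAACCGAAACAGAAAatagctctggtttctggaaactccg
Ifit1 promoter, chr19:34640760-34640819, plus strand: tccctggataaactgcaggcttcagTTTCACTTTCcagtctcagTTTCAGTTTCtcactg
Igtp promoter, chr11:58199497-58199555, plus strand: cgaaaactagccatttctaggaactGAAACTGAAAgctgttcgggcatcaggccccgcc
Rsad2 promoter, chr12:26456538-26456597, minus strand: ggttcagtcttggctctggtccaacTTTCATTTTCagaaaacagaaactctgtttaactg
Cxcl10 promoter, chr5:92349068-92349127, minus strand: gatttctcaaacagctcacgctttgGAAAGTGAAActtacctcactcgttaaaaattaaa
Isg15, Igtp and Rsad2 were named after their values were seen. The interferon-inducible GTPase Igtp rose (log2 1.72, SE 0.39, adjusted p = 0.006) and the antiviral enzyme Rsad2 rose (log2 1.41, SE 0.30, adjusted p = 0.0046). The repeat was in 17 of 28 promoters of interferon-stimulated genes (60.7%), in 3.15% of those of all genes tested and in 3.44% of all promoters. Of the list's promoters it was in 9 of 16 that belong to genes called higher and in 8 of 12 that belong to the others.

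Other immune genes gave fewer calls. In MHC class I presentation 4 of 9 genes rose and 0 fell: the immunoproteasome subunits Psmb9 (log2 1.34, SE 0.26), Psmb10 (log2 0.91, SE 0.14) and Psmb8 (log2 0.90, SE 0.20), and the peptide loading protein Tapbp (log2 0.59, SE 0.18), whose call was lost with normexp and when any of 6 arrays was left out. The class I chains H2-K1 and H2-D1 differed by -0.0099 (adjusted p = 0.97) and 0.24 (0.36). Of 8 MHC class II genes 0 were called by limma, with an unadjusted p under 0.05 for 4 of them and differences of 0.57 for H2-Ab1, 0.74 for Cd74 and 0.56 for H2-Eb1. Of 32 chemokine, cytokine and NF-kB genes 6 rose and 2 fell. Cxcl10, an interferon-induced chemokine, rose (log2 2.03, SE 0.46, adjusted p = 0.0063) with overlapping groups (1.23 with normexp), the factor Irf1 rose (log2 1.28, SE 0.24, adjusted p = 0.0022), and Tnf, not well above background on any WT array, rose at least 1.43-fold (adjusted p = 0.00045) but was not called with normexp.

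**Figure D4:**
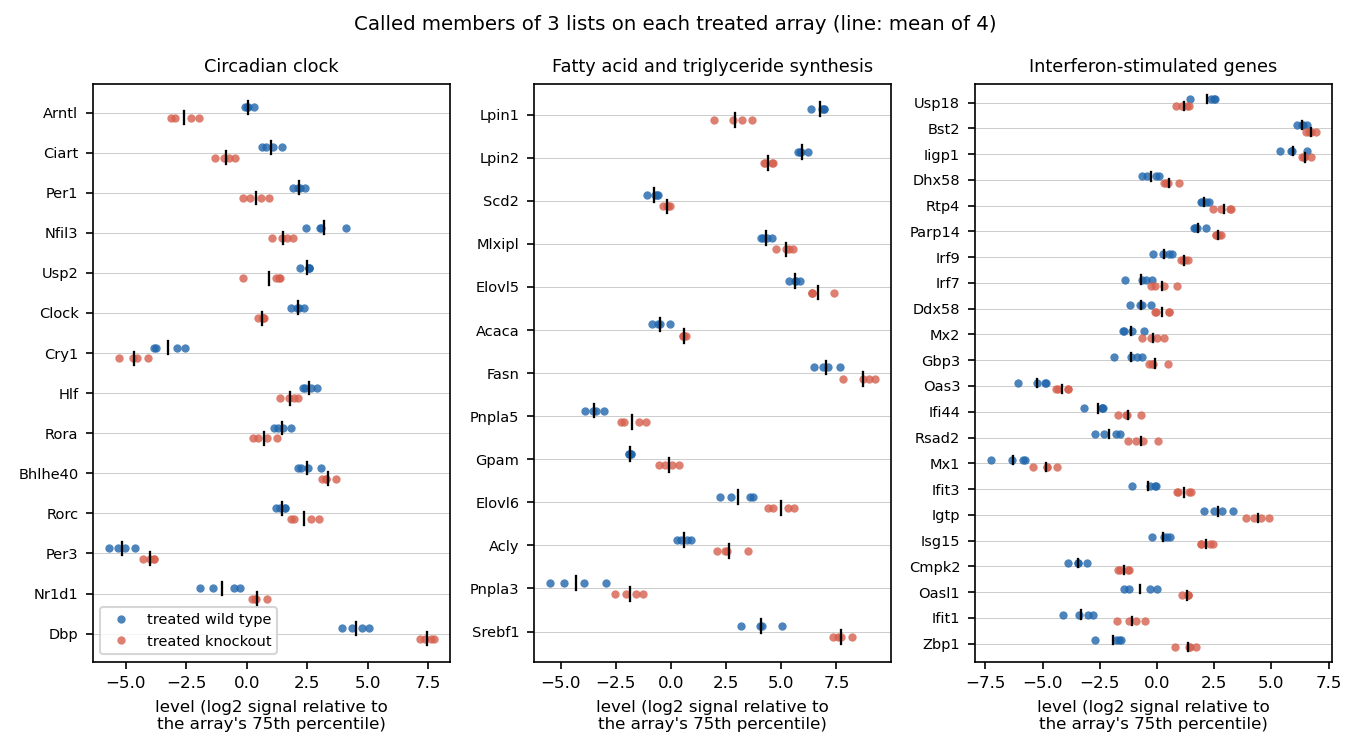
Levels (log2 signal relative to the array's 75th percentile, horizontal axis) of the called members of 3 lists, the circadian clock, fatty acid and triglyceride synthesis, and interferon-stimulated genes, on the 4 treated wild-type and 4 treated knockout arrays, with a line at each mean of 4. Clock genes moved in both directions (5 higher, 9 lower), whereas 11 of 13 called lipogenic genes and 21 of 22 called interferon-stimulated genes were higher in knockout.

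More growth arrest genes fell than rose, and more replication genes rose than fell. Of 20 growth arrest and immediate early genes 6 fell and 1, Gadd45a, rose. Gadd45g fell with Cdkn1a and Gadd45b (log2 -2.96, SE 0.92, adjusted p = 0.032), but its groups overlapped and its call was lost when any of 6 arrays was left out. Of 24 cell cycle and replication genes 10 rose and 1 fell, and 6 rose without knockout replicate 4. Their median was 0.13, beside 0.09 for all genes, so the list as a whole shifted little. Without the drug their median was 0.57, with 1 of 24 called. Their mean level was low, at -1.19 to -0.38 on the WT arrays. Mcm2 and Mcm3, subunits of the replicative helicase, rose: Mcm2 was at -2.72, -2.62, -3.16 and -2.55 in WT and 0.19, -1.20, -1.53 and -1.14 in knockout (log2 1.84, SE 0.32, adjusted p = 0.0012), and Mcm3 rose by 1.46 (SE 0.28). Rrm2, the regulatory subunit of ribonucleotide reductase, went against them, from 1.01, 0.26, -0.11 and 0.10 to -2.51, -2.14, -2.84 and -2.38 (log2 -2.78, SE 0.34, adjusted p = 0.00011). Pcna, the sliding clamp, differed by -0.17 (adjusted p = 0.49) and Tyms by 0.23 (0.21). In the unfolded protein and integrated stress response 3 of 24 genes rose and 1 fell, 16.7% beside 22.4% of all genes. Herpud1, of endoplasmic reticulum-associated degradation, fell (log2 -1.57, SE 0.23, adjusted p = 0.00039), and the main chaperone Hspa5 differed by -0.19 (adjusted p = 0.7). Of 17 heat shock genes 3 rose and 2 fell. The largest of these differences was the rise of Hspa1l (log2 2.55, adjusted p = 0.0022), or 1.21 with normexp. The falls were in Hspb8 (log2 -1.19, SE 0.26) and Dnaja1 (log2 -1.03, SE 0.26).

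Markers of the liver's cell types were set beside these groups, and their part in the results was not tested. Alb, the defining hepatocyte product, was saturated on all 8 treated arrays, so no difference is read from it. Fgb and Serpina1b differed by -0.22 and -0.28 and were not called, while 4 of 10 hepatocyte markers fell, beside 8.20% of all genes, and 0 rose. They were Cps1, Hnf4a, Apoa1 and Cyp2e1, and the call of Cyp2e1 was lost with quantile normalization, without the filter on dim probes and when any of 6 treated arrays was left out (log2 -0.53, SE 0.16). Kupffer cell and macrophage markers gave 0 of 13 called, endothelial markers 0 of 18 and stellate cell markers 0 of 15, with medians of 0.33, 0.13 and -0.14. At an unadjusted p under 0.05 there were 3, 1 and 1 of them. Clec4f, the Kupffer cell lectin, differed by 0.33 (adjusted p = 0.31). Of 11 B cell markers 4 rose and 0 fell, with Ighm, the heavy chain of IgM, at -0.28, -0.78, -0.73 and -0.33 in WT and 1.66, 0.85, 0.60 and 0.18 in knockout (log2 1.35, SE 0.24, adjusted p = 0.0016). With normexp 1 of the 4 was called. T and NK cell markers gave 2 higher and 1 lower of 16, Cd5 (log2 0.94, SE 0.20), Cd8b1 (log2 0.66, SE 0.16) and Cd3e (log2 -0.69, SE 0.13). The mean level of the B cell markers ran from -4.68 to -4.14 on the WT arrays and from -3.88 to -3.63 on the knockout arrays, with no overlap. These WT means were near the dimmest signal above background there, at -5.33 to -5.11, and 3 of the 11 markers were below background on every WT array. The median of the B cell markers was 0.46 with the drug and 0.76 without it. The mean level of the Kupffer cell markers ran from 0.98 to 1.62 and from 1.36 to 2.15, and these groups overlapped.

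The same genotype comparison without dexamethasone, made on 8 other arrays, gave 521 called genes (2.82%), 382 higher (2.06%) and 139 lower (0.751%). Of the 4153 genes called with the drug, 261 (6.28%) were also called without it in the same direction and 88 in the opposite one. The 261 became 67 with normexp, 101 without untreated WT replicate 2, 170 without untreated WT replicate 1 and 171 without untreated knockout replicate 2. Without untreated knockout replicate 1, whose signal was low, 5563 genes were called with the drug and 244 in the same direction in both comparisons. The untreated difference had the same sign as the treated one for 77.0% of the 4153, beside 66.8% of all genes tested. The median size was 0.915 with the drug and 0.256 in the same direction without it. The interaction, which tests whether the genotype difference itself changed with treatment, was called for 703 of them (16.9%), beside 4.63% of all genes. Among the 366 genes that differed by over 4-fold with the drug, 58 were called in the same direction without it and 120 (32.8%) passed the interaction. The genes called with the drug were chosen on that comparison, which by itself favours larger values there.

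For several of the largest changes the interaction was not called. Cfd was 5.93 (SE 0.88) without the drug, at 0.43, 0.92, 1.87 and 1.30 in untreated WT and 6.84, 7.10, 7.32 and 6.96 in untreated knockout, against 4.34 with it, and the interaction was -1.59 (adjusted p = 0.63). Fkbp5 was -3.25 without and -3.94 with the drug (interaction adjusted p = 0.81), Lpin1 -3.38 and -3.86 (0.78), Mfsd2a -4.41 and -4.32 (0.99), and Per1 -1.90 and -1.79 (0.94). A p that misses the threshold does not show that these effects were equal.

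For others it was called. Gadd45b stood at -2.05, -1.53, -2.05 and -0.59 in untreated WT and -0.98, -2.38, -1.16 and -1.68 in untreated knockout, a difference of 0.009 (SE 0.57), and the interaction was -4.92 (adjusted p = 0.0042). Dbp was at 7.20, 7.70, 6.84 and 7.34 against 8.11, 7.89, 6.98 and 7.58 without the drug, and its interaction was 2.57 (adjusted p = 0.0031). Dbp was thus high in every group but treated WT. Ppp1r3c differed by 0.15 without and -2.63 with dexamethasone (interaction adjusted p = 0.013), Gadd45a by 1.82 and 4.33 (0.0054), and Clstn3 by 1.84 and 3.69 (0.009). These calls held when any 1 of the 16 arrays was left out and with normexp. Srebf1 differed by 0.77 and 3.63 (0.04), Sult1e1 by -2.36 and -6.45 (0.041), Saa4 by -0.41 and -3.01 (0.038), and Insig2 by -0.24 and -2.84 (0.025). The interaction calls of these last genes were lost in 12, 12, 13 and 4 of the 16 fits with 1 array left out. Of the classic glucocorticoid-induced genes 8 of 20 were called without the drug (median -1.17), and of the interferon-stimulated genes 0 of 35 by limma (median 0.32), with an unadjusted p under 0.05 for 10 of them.

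**Figure D5:**
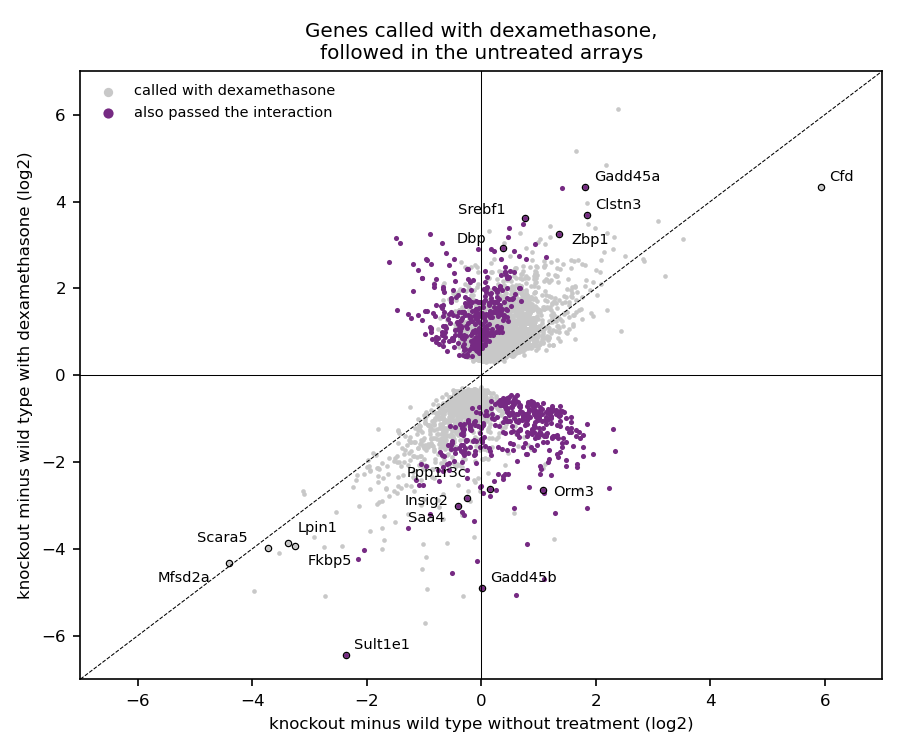
Each point is 1 of the 4153 genes called with dexamethasone, with the untreated knockout minus wild type difference (log2) across and the treated one up; the dashed line marks equal differences, and purple points are the 703 that also passed the interaction. Fkbp5, Lpin1 and Mfsd2a lie near the line and Cfd to the right of it, whereas Gadd45b, Dbp and Srebf1 lie near the vertical axis.

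Calls were also counted by distance from the probe of Nr3c1 on its chromosome (mm7). Within 10 Mb of it 16 of 150 genes were higher and 22 lower, 25.3% in all, beside 22.5% on other chromosomes. Of these 150, 2 (1.33%) were called in both genotype comparisons, beside 1.88% on other chromosomes. Eif4ebp3, 2.75 Mb away and among the 20 largest falls, was at 6.87, 6.77, 7.02 and 6.56 in WT and 2.81, 3.15, 2.17 and 3.25 in knockout with the drug, and differed by -2.74 (adjusted p = 0.0089) without it.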

How the data were processed

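Total RNA from liver was labelled with Cy3 and hybridised in 1 colour to Agilent whole mouse genome arrays, 4 for each of 4 groups. Values were deposited as an intensity, the background-subtracted processed signal of a spot, written by Agilent Feature Extraction (version 9.5 in the submitters' processing notes). Yes-or-no marks of other kinds, for detection above background, saturation and outliers, stand beside it per the file headers. The authors' series table is an intensity too and equals that signal. Probe positions are on mm7 per the file headers; symbols came from RefSeq (GRCm38.p6), through accessions for 23075 of 41174 probes and symbols or synonyms for 9659, while 8440 had none.

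The log2 signal was centred on the 75th percentile of each array's non-control spots, outliers (0.306% of spots) were treated as missing and repeat spots of a probe averaged. A probe had to be well above background on at least 3 of 4 arrays in some group (26792 were), and the brightest represented its gene, giving 18505 genes (15152 with a symbol). Group means were fitted with limma 3.58.1 (R 4.3.3) to all 16 arrays, with Benjamini-Hochberg adjustment over all genes and a threshold of 0.05, two-sided. A fold is given as "at least" where the lower group was above background on 0 of 4 arrays: the higher group's mean against the dimmest signal measured above background on each array, or the dim probe's own where that was higher. Residuals of treated arrays with the same replicate number correlated at 0.0629 to 0.146. Treated knockout replicates 2, 3 and 4 correlated best with the treated WT array of their own number, and replicate 1 did not. The main fit did not take the numbers as pairs, so a shared effect of the number stays possible, and a fit with the number as a block is given below. Steps were tested on simulated data.

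The members and gene lists were chosen with earlier results of these data known. Named were Nr3c1, the 20 largest rises and the 20 largest falls among called genes that had a symbol, signal on all 4 arrays of the higher group and no overlap, and up to 4 called and 3 uncalled members of each list, apart from genes marked as named after their values were seen. Some genes that the rule names are not reported here. Alternatives were the background correction, normalization, filter, probe choice, variance model, array weights, replicate block and each array left out. The number of arrays limits the precision. Figures used matplotlib 3.10.9 in Python 3.11.15.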

Additional observations from a re-analysis of the deposited data

Results flagged for a closer look

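The genotype difference with dexamethasone differed from that without it for 34 of the 185 genes looked at, by limma's interaction term. Values are the treated minus the untreated knockout effect (log2). Calls that held with every single array left out and with normexp were lower under the drug for Gadd45b (-4.92), Wfdc12 (-4.04), Foxo4 (-3.55), Scp2d1 (-3.14), Ppp1r3c (-2.77), Usp18 (-1.75), Aass (-1.46), Slc39a14 (-1.45) and Cd3e (-1.10), and higher for Dbp (2.57), Gadd45a (2.51) and Clstn3 (1.85). Those that were lost in some such fit, or with normexp, were lower for Rsph4a (-5.80), Tg (-5.67), 5330439B14Rik (-4.21), Sult1e1 (-4.09), Saa4 (-2.60), Insig2 (-2.60), Sult1d1 (-2.24), Serpine2 (-2.08), Omd (-1.96), C3ar1 (-1.60) and Slc25a15 (-1.33), and higher for Olfr1371 (4.65), Tifab (4.16), Cdh24 (2.91), Srebf1 (2.86), Oasl1 (1.93), Zbp1 (1.91), Acly (1.70), Nr3c2 (1.67), Cdh1 (1.45), Cmpk2 (1.32) and Isg15 (1.29). Rsph4a, Tg, 5330439B14Rik, Olfr1371, Tifab and Cdh24 were below background on all 4 arrays of at least 1 group, so their values are fitted ones and not measured differences. Of the 34, 20 kept the call in all 16 fits with 1 array left out, and 14 were called with normexp.

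In 13 of the 370 groups of 4 arrays looked at, 1 array lay far from the other 3 by Dixon's criterion; chance alone gives about 1 in 20 groups. In treated knockout, replicate 1 stood at -2.52 for Cxcl10 (others -1.15 to -1.02), 9.93 for Gstm1 (others 9.69 to 9.73) and 8.94 for Hmgcs1 (others 6.31 to 6.42). In treated knockout, replicate 3 stood at 7.47 for Abcb11 (others 7.68 to 7.70) and 5.99 for Nags (others 5.81 to 5.83). In treated knockout, replicate 4 stood at 1.93 for Gadd45a (others 2.43 to 2.51), 8.34 for H2-K1 (others 8.18 to 8.20), 1.07 for Oasl1 (others 1.36 to 1.37) and 5.52 for Plin5 (others 4.56 to 4.68). In treated WT, replicate 2 stood at 1.44 for Usp18 (others 2.35 to 2.52). In treated WT, replicate 3 stood at 3.70 for Pfkfb3 (others 3.14 to 3.19). In treated WT, replicate 4 stood at 7.17 for Glul (others 6.50 to 6.61) and 7.60 for Hsd11b1 (others 6.85 to 6.95).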

How the results depend on the processing

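The count of 4153 stayed within 1.5 times of itself, at 3359 to 5310, under quantile normalization, another percentile, 2 other filters on dim probes, the mean of probes, outlying spots kept, a fit of the 8 treated arrays alone, another variance model, the deposited series table, the replicate block and median centring, the last chosen after seeing the data. It moved further with normexp (2386: 1395 higher, 991 lower), with array weights (6689: 4186 and 2503) and with a test beyond 1.5-fold (549: 293 and 256), the last by construction; for the others the cause was not tested. With 1 array left out it ran from 2930 to 5563 (higher 1847 to 3535, lower 1083 to 2028). The replicate block gave 4172 (2673 higher, 1499 lower), ended 3 calls of the 176 genes examined singly and left 358 called in both genotype comparisons. The count called in both, 261, was 67 with normexp, 145 without a filter, 781 with array weights, 14 beyond 1.5-fold and 101 to 319 with 1 array left out. The interaction was called for 34 genes named by the rule, for 13 with normexp, 21 without a filter, 72 with array weights, 7 beyond 1.5-fold, 42 with the block and 19 to 47 with 1 array left out. Of the 176 calls, 34 were lost with some array left out, 23 with normexp, 17 without a filter and 10 with median centring. With normexp Slc30a1 turned to 0.0609 from -0.53 and C3ar1 to 0.0434 from -0.68. Below background no fold could be measured, which limits the 57 falls and 248 rises given as bounds.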

Other observations

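A set of 88 genes differed between knockout and WT in opposite directions with and without dexamethasone, both differences being called, which all but fixes that the interaction is called too. Of these, 82 were lower in knockout with the drug and higher without it, and 6 were the reverse. They were dim, with a median level of -3.27 beside -0.69 for all genes tested, and 15 of the 88 (17.0%) were olfactory receptor genes beside 2.23% of all genes. Their median levels were -3.66 in untreated WT, -2.9 in treated WT, -2.56 in untreated knockout and -3.84 in treated knockout. The genes named here were chosen after their values were seen. Scp2d1, a sterol carrier domain protein, was at -0.48, -0.59, -0.23 and -0.032 in treated WT, -1.19, -2.67, -2.75 and -2.004 in treated knockout, -1.68, -2.21, -1.83 and -1.01 in untreated WT and -0.20, -0.31, -0.53 and -0.39 in untreated knockout. Foxo4, a forkhead factor related to Foxo1, differed by -1.25 (SE 0.42) with the drug and by 2.30 (SE 0.42) without it. Its call with the drug (adjusted p = 0.047) was lost in 9 of 16 fits with 1 array left out, with normexp (-0.66), with another percentile and without the filter on dim probes. Olfr1371, an olfactory receptor gene, was the reverse: it was at least 2.78-fold higher in knockout with the drug, where it was below background on all 4 WT arrays, and was called lower without the drug (adjusted p = 0.021), where it was below background on all 4 knockout arrays. With normexp 6 of the 88 were still called in opposite directions, and with 1 array left out between 33 and 146 genes were. Without untreated knockout replicate 1, 53 of the 88 were.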
